A study of Homo sapiens with 10 samples.

Results

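The 41 genes described here encode enzymes of the tricarboxylic acid (TCA) cycle, of glutamine and glutamate use and of mitochondrial fatty acid oxidation, together with 2 transcriptional coactivators of these pathways. They were listed by symbol with earlier results of these data known, so counts over them only describe these genes. All 41 were found among the 26485 genes listed and among the 14932 genes with enough reads to be tested. The libraries come from SW480, an established human colorectal cancer line labelled as wild type (WT), kept in DMEM with fetal bovine serum, an antimycotic-antibiotic and L-glutamine. Fluorescence-activated sorting on ROBO1, a receptor of the cell surface, gave ROBO1pos cells (SW480-CBC) and ROBO1neg cells (SW480-RSC), with 5 libraries of polyadenylated RNA from each, and the labels name no treatment. The comparison asks how expression differs between these populations of 1 line. Whether the replicates were separate cultures is not said, so the p-values cover only the variation among these libraries, which may be technical.

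In the TCA cycle, acetyl-CoA is joined to oxaloacetate to form citrate, which is oxidised stepwise back to oxaloacetate while electrons pass to the respiratory chain. Glutamine refills the cycle through glutamate and oxoglutarate, and malic enzymes and pyruvate carboxylase link the cycle to pyruvate. Fatty acids are activated to acyl-CoA by ligases of the ACSL family, carried into mitochondria by the carnitine shuttle, and shortened by repeated rounds of dehydrogenation, hydration, oxidation and thiolysis. Normal colonocytes are known for oxidising the short-chain fatty acid butyrate.

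ROBO1 itself checks the labels and is no finding: it was at 400.0 to 462 CPM (reads of a gene scaled to equal library size) in ROBO1pos and 5.63 to 9.04 CPM in ROBO1neg. Reads on genes numbered 23228686 to 29539100 per library, so 1 CPM rested on 23.2 to 29.5 reads. Reads aligned to several places made up 24.6% ± 0.875 of ROBO1pos and 21.2% ± 0.398 of ROBO1neg libraries (exact two-sided permutation p = 0.00794, the smallest that 5 against 5 can give). Of 9 markers of colorectal epithelium 7 were tested, with sums of 5776 to 7033 CPM in ROBO1pos and 7979.9 to 10495 in ROBO1neg, where the keratins KRT8, KRT18 and KRT19 carried the sums and were higher in ROBO1neg. EPCAM (679.9 ± 22.9 against 303 ± 12.8 CPM) and VIL1 (503 ± 23.3 against 27.7 ± 3.14 CPM) went the other way and were higher in ROBO1pos, while KRT20 had 0 counts in every library and CEACAM5 had 1 count in all. The 4 leukocyte markers summed to 1.05 to 1.56 CPM in ROBO1pos and 1.23 to 2.02 in ROBO1neg, with PTPRC at 6 counts in ROBO1pos and 0 in ROBO1neg, and the 3 endothelial ones, in the same order, to 0.465 to 0.781 and 2.34 to 4.25. The 4 fibroblast markers summed to 8.76 to 12.7 and 12.3 to 18.0 CPM, with COL1A1 at 622 and 1814 counts and LUM at 470 and 4. Their part in the results was not tested, and in bulk RNA fewer cells of a type and less RNA per cell cannot be told apart.

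More of the 41 genes were higher in ROBO1pos than in ROBO1neg, and most differences were small. By edgeR's quasi-likelihood test, with a threshold of 0.05 on p adjusted over all genes tested, 24 were higher in ROBO1pos (58.5%, where 41.6% of all genes tested were), 9 were higher in ROBO1neg (background 40.4%) and 8 did not pass. In all, 82% of genes tested were called in one direction or the other, so a call for a single gene is common here. The median log2 fold change (log2FC, always ROBO1pos minus ROBO1neg) was 0.20 over the 41 genes and 0.019 over all genes tested, and the median size without sign was 0.46 and 0.58. Called differences of at least 2-fold were found for IDH2, FH, ETFDH, CPT1C and ACADL in ROBO1pos (5 genes, background 13.5%) and for SUCLG2 in ROBO1neg (1 gene, background 16.8%, or 30.3% in either direction). Every library of one population lay above every library of the other for 23 genes in the direction of ROBO1pos (background 36.1%) and 6 in that of ROBO1neg (background 35.7%). When a difference beyond 1.5-fold was required, 9 were higher in ROBO1pos (background 19.7%) and 3 in ROBO1neg (background 22.1%).

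**Figure D1:**
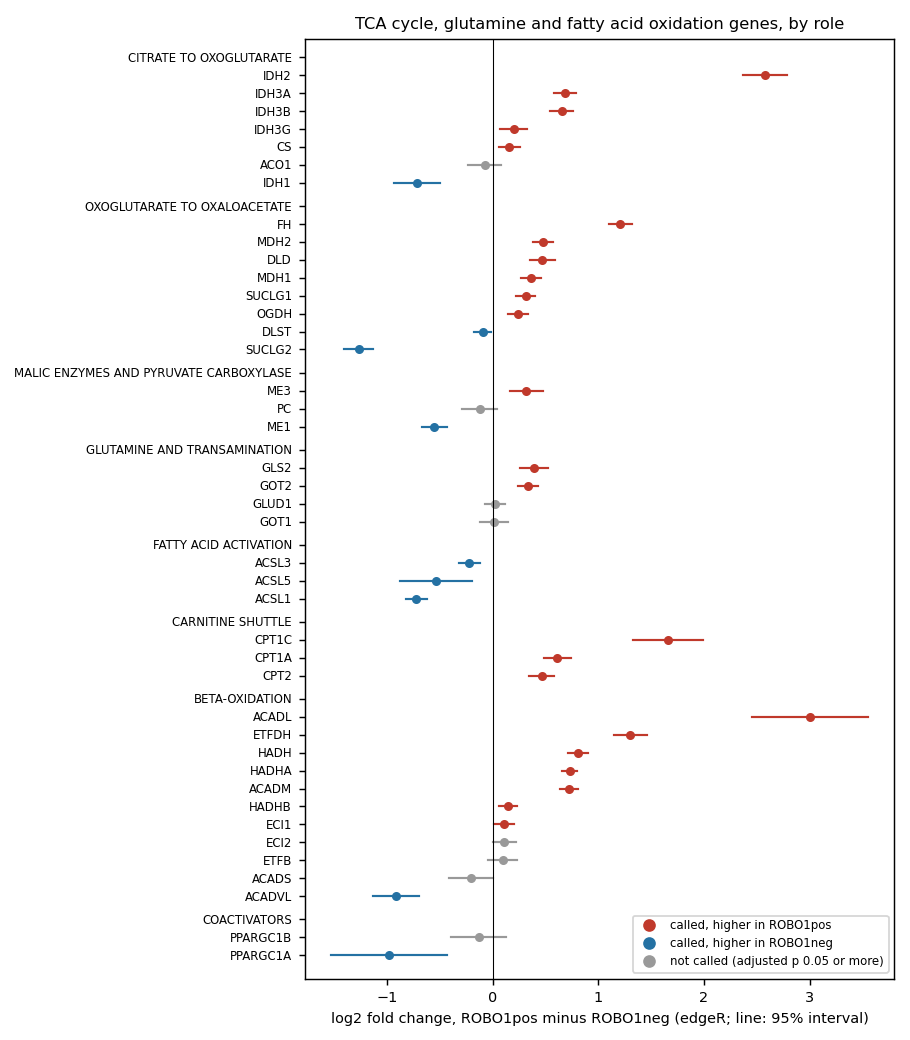
Log2 fold change (x axis, ROBO1pos minus ROBO1neg) of each of the 41 genes, grouped by role, with the 95% interval of the edgeR fit as a line; red and blue mark genes called higher in ROBO1pos and in ROBO1neg, grey those not called. ACADL (3.00) and IDH2 (2.58) lie farthest to the right and SUCLG2 (-1.27) farthest to the left.

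Of the 7 genes of the steps from citrate to oxoglutarate, 5 were higher in ROBO1pos (background 41.6%). IDH1 was higher in ROBO1neg (background 40.4%) and ACO1 did not pass. IDH2, the mitochondrial NADP-dependent isocitrate dehydrogenase, lies on chromosome 15 from 90083045 to 90102468 (GRCh38.p14, as all positions here). Its level in ROBO1pos replicates 1 to 5 was 346, 316, 330.4, 313 and 227 CPM, and in the ROBO1neg replicates, in the same order, 51.1, 49.2, 55.1, 53.3 and 48.6 CPM. Replicate 5 was the lowest of ROBO1pos and still far above every ROBO1neg library (log2FC 2.58, SE 0.10, edgeR adjusted p = 1.2e-11). IDH1, the enzyme of the same reaction in cytosol and peroxisomes, was at 109, 129.8, 99.8, 93.1 and 113 CPM in ROBO1pos and 163, 196, 157, 162 and 218 CPM in ROBO1neg. It went the other way, again with no overlap (log2FC -0.72, SE 0.10, edgeR adjusted p = 1.5e-05).

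The NAD-dependent isocitrate dehydrogenase of mitochondria is built from the products of IDH3A, the catalytic subunit, and of IDH3B and IDH3G, and all of these were higher in ROBO1pos. IDH3A was at 115 ± 7.32 against 71.9 ± 2.24 CPM (ROBO1pos against ROBO1neg, mean ± SD, n = 5, here and below; log2FC 0.68) and IDH3B at 149.6 ± 7.99 against 95.3 ± 5.36 CPM (log2FC 0.65). IDH3G differed less, at 59.5 ± 2.82 against 52.0 ± 4.43 CPM (log2FC 0.20), and its groups overlapped. Relative to its neighbours, with a median of 0.49, IDH3A was only at 0.19 (edgeR adjusted p = 0.0017), close to IDH3G at 0.16 (0.019). IDH3B was at 0.54 relative to its own neighbours (1.8e-07). In GENCODE release 29, 60.3% of the exon bases of IDH3A are also exon of ACSBG1 on the other strand, which itself had means of 0.219 CPM (ROBO1pos) and 0.0926 (ROBO1neg). CS, the citrate synthase that opens the cycle, was at 343 ± 16.2 against 308 ± 15.2 CPM (log2FC 0.16, SE 0.046, edgeR adjusted p = 0.0058). For ACO1, the cytosolic aconitase that also acts as the iron-responsive RNA-binding protein IRP1, log2FC was -0.078 with a 95% interval of -0.23 to 0.079, but relative to its neighbours it passed as higher in ROBO1neg (-0.27, edgeR adjusted p = 0.0037).

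From oxoglutarate to oxaloacetate, 6 of 8 genes were higher in ROBO1pos (background 41.6%), and SUCLG2 and DLST were higher in ROBO1neg (background 40.4%). FH, the fumarate hydratase that turns fumarate into malate, lies on chromosome 1 from 241497603 to 241519755. It was at 189.9, 215, 198, 201 and 215 CPM in ROBO1pos and 86.3, 96.9, 82.3, 90.4 and 84.9 CPM in ROBO1neg. The groups were far apart (log2FC 1.21, SE 0.052, edgeR adjusted p = 5.0e-11). Tested genes beside FH were also higher in ROBO1pos, with a median log2FC of 0.78 over the 20 nearest on each side, and relative to them FH differed by 0.42. SUCLG2, the GTP-forming beta subunit of succinyl-CoA ligase, lies on chromosome 3 from 67360460 to 67654612. It was at 26.4, 24.1, 27.0, 31.5 and 28.4 CPM in ROBO1pos and 69.6, 62.7, 64.7, 68.2 and 66.5 CPM in ROBO1neg. Every ROBO1neg library was above every ROBO1pos library (log2FC -1.27, SE 0.063, edgeR adjusted p = 1.9e-10), and relative to its neighbours, with a median of -0.72, the difference was -0.55.

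SUCLG1, the alpha subunit that pairs with either beta subunit, had more reads in ROBO1pos, at 99.7 ± 3.33 against 80.4 ± 3.90 CPM. SUCLA2, the ATP-forming beta subunit and not one of the 41, was higher in ROBO1neg at 71.2 ± 4.04 against 85.8 ± 3.97 CPM. Relative to its neighbours, with a median of -0.52, SUCLA2 turned and passed as higher in ROBO1pos (0.25, edgeR adjusted p = 0.00027). Per kilobase of exon, SUCLG2 made up 34.7% ± 3.41 of the sum of SUCLG2 and SUCLA2 in ROBO1pos and 51.5% ± 2.10 in ROBO1neg. The oxoglutarate dehydrogenase complex consists of the products of OGDH, DLST and DLD. DLD, the dihydrolipoamide dehydrogenase that other such complexes also use, had 213 ± 16.2 against 154 ± 7.02 CPM and was higher in ROBO1pos, as was OGDH at 217 ± 13.2 against 184 ± 4.63 CPM. DLST, the succinyltransferase, was at 182 ± 4.62 against 195 ± 6.14 CPM with overlapping groups (log2FC -0.10, SE 0.036, edgeR adjusted p = 0.023), and its call was lost without ROBO1pos replicate 3 (adjusted p = 0.053) or ROBO1neg replicate 4 (0.061). Relative to its neighbours DLST turned and passed as higher in ROBO1pos (0.14, edgeR adjusted p = 0.0034).

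The malate dehydrogenases, MDH1 of the cytosol and MDH2 of mitochondria, were both higher in ROBO1pos, at 257 ± 9.18 against 200.3 ± 10.9 CPM and 425 ± 23.0 against 307 ± 10.4 CPM. Succinate dehydrogenase, whose genes are outside the 41, was split. Its catalytic and iron-sulfur subunits were higher in ROBO1pos, SDHA at 322 ± 15.9 against 187 ± 3.96 CPM and SDHB at 107 ± 6.09 against 71.1 ± 2.75 CPM, beside neighbours with median log2FC of 0.65 and 0.67. The membrane anchors SDHC and SDHD did not pass, with intervals of -0.10 to 0.12 and -0.10 to 0.090. Relative to neighbours, SDHA stayed higher in ROBO1pos (0.13, edgeR adjusted p = 0.0092) and SDHB did not pass (-0.078, 0.13). SDHC and SDHD then passed as higher in ROBO1neg (-0.20 and -0.13, edgeR adjusted p = 0.0021 and 0.014).

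**Figure D2:**
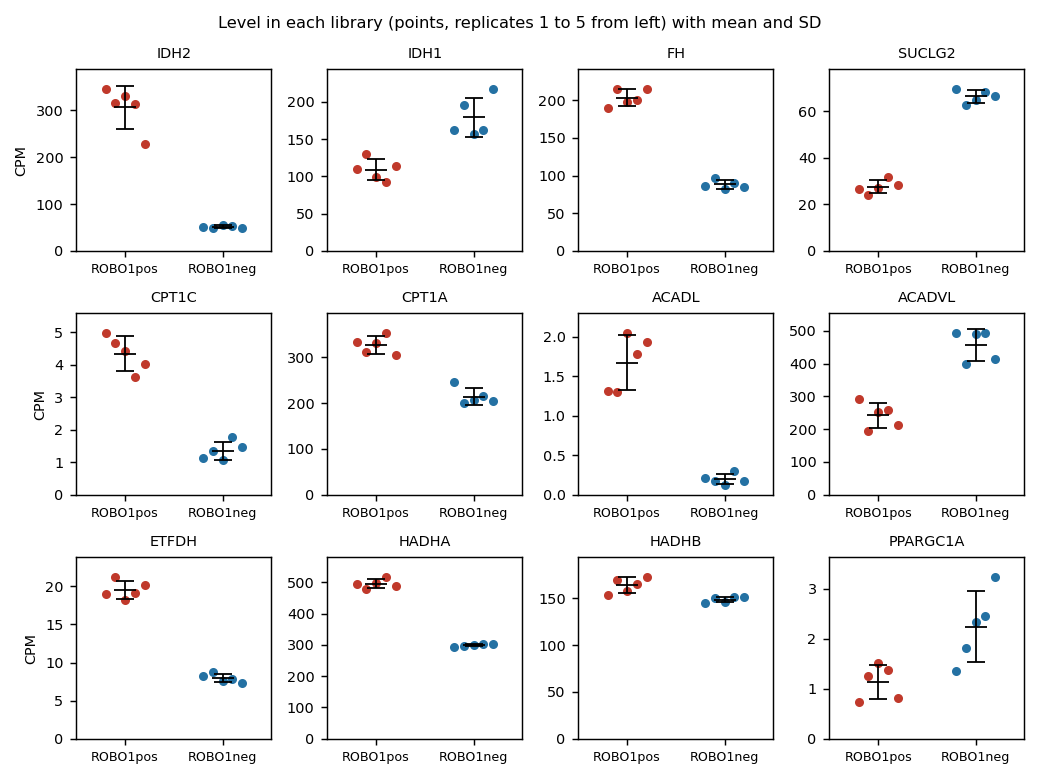
Level in CPM (y axis, from 0) of 12 of the genes in each of the 5 ROBO1pos (red) and 5 ROBO1neg (blue) libraries (x axis), with mean and SD in black. IDH2 has a mean of 307 CPM in ROBO1pos and 51.5 in ROBO1neg while IDH1 has 109 and 179, and among these 12 the groups overlap for PPARGC1A.

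The malic enzymes, which turn malate into pyruvate, moved in opposite directions. ME1, the cytosolic NADP-dependent form, was lower in ROBO1pos at 35.3 ± 1.83 against 51.8 ± 3.66 CPM (log2FC -0.55, SE 0.056, edgeR adjusted p = 4.0e-07). ME3, a mitochondrial NADP-dependent form, was higher there at 17.1 ± 1.41 against 13.8 ± 0.885 CPM (log2FC 0.32), though relative to its neighbours it was at 0.12 and did not pass. ME2, the mitochondrial NAD-dependent form and not one of the 41, was at 67.6 ± 6.10 against 22.3 ± 1.96 CPM and lies beside genes with a median log2FC of 0.96. PC, pyruvate carboxylase, did not pass (log2FC -0.13, interval -0.29 to 0.036). Without ROBO1pos replicate 5 it passed as higher in ROBO1neg, at -0.19 (edgeR adjusted p = 0.023).

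Of the 4 genes of glutamine use and transamination, GLS2 and GOT2 were higher in ROBO1pos (background 41.6%), and GLUD1 and GOT1 did not pass. GLS2, the liver-type glutaminase, was at 46.4 ± 4.05 against 35.4 ± 1.61 CPM (log2FC 0.39, SE 0.060, edgeR adjusted p = 3.5e-05). In GENCODE, 71.6% of its exon bases are also exon of SPRYD4 on the other strand, which was higher in ROBO1neg (15.1 ± 1.80 against 25.6 ± 3.09 CPM). The strand setting of the counting was not found, so the values of GLS2 and IDH3A are uncertain to that extent. The same holds for IDH3G, which shares 15.2% of its exon bases with SSR4 on the other strand, a more abundant gene that was higher in ROBO1pos (193 ± 10.1 against 135 ± 6.23 CPM, log2FC 0.51).

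GOT2, the mitochondrial aspartate aminotransferase of the malate-aspartate shuttle, was at 231 ± 14.1 against 183 ± 4.20 CPM. Its cytosolic counterpart GOT1 had a log2FC interval of -0.12 to 0.14, and GLUD1, the glutamate dehydrogenase of mitochondria, one of -0.077 to 0.12. GLUD1 has 5 and GOT2 4 named pseudogenes in GENCODE, as have HADHA and SUCLG2 (2 each) and DLST and FH (1 each). Of these copies, 1 of GLUD1 and 1 of DLST are among the genes listed. Reads that align equally to such a copy could be among those aligned to several places, which did not enter the counts of genes. The glutamine transporter SLC1A5, outside the 41, was higher in ROBO1pos at 3904 ± 71.7 against 2084 ± 108 CPM.

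The 3 genes of fatty acid activation were all higher in ROBO1neg (background 40.4%). The 3 of the carnitine shuttle were all higher in ROBO1pos (background 41.6%). With 3 genes in each, these counts only describe the genes. ACSL1, a long-chain acyl-CoA synthetase, was at 66.9, 71.1, 66.3, 61.5 and 60.3 CPM in ROBO1pos and 107, 103, 109.8, 109 and 110.0 CPM in ROBO1neg. The groups did not overlap (log2FC -0.72, SE 0.047, edgeR adjusted p = 3.7e-09). ACSL5, found on mitochondria and abundant in intestinal epithelium, varied more, from 15.8 to 30.1 CPM in ROBO1pos and from 28.3 to 39.5 in ROBO1neg, so its groups overlapped (log2FC -0.54, edgeR adjusted p = 0.0059). ACSL3, of the endoplasmic reticulum and lipid droplets, was at 109 ± 6.14 against 128 ± 5.39 CPM (log2FC -0.22), but relative to its neighbours, with a median of -0.55, it was higher in ROBO1pos (0.33). ACSL4, outside the 41, was also higher in ROBO1neg (log2FC -0.92).

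CPT1A, the carnitine palmitoyltransferase that controls entry of long-chain fatty acids into mitochondria, was at 332, 310.5, 331, 353 and 305 CPM in ROBO1pos and 245, 199.5, 206, 216 and 204 CPM in ROBO1neg. All ROBO1pos libraries lay above all ROBO1neg libraries (log2FC 0.61, SE 0.060, edgeR adjusted p = 3.1e-07). CPT2, which forms acyl-CoA again inside mitochondria, was at 47.6 ± 3.69 against 34.5 ± 1.38 CPM. CPT1C, a relative known from brain with little transferase activity, was at 4.99, 4.67, 4.42, 3.64 and 4.03 CPM in ROBO1pos and 1.15, 1.33, 1.09, 1.77 and 1.48 CPM in ROBO1neg. The groups did not overlap (log2FC 1.66, SE 0.15, edgeR adjusted p = 1.8e-07), but CPT1C made up only 2.59% ± 0.365 of the sum of CPT1C and CPT1A per kilobase in ROBO1pos and 1.26% ± 0.279 in ROBO1neg. SLC25A20, the carrier of acylcarnitine across the inner membrane, and CRAT, carnitine acetyltransferase, both outside the 41, were higher in ROBO1neg (log2FC -0.48 and -1.10). Relative to their neighbours CRAT still passed (-0.51) and SLC25A20 did not (-0.13, edgeR adjusted p = 0.16).

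Among the 11 genes of beta-oxidation and its electron transfer, 7 were higher in ROBO1pos (background 41.6%). ACADVL was higher in ROBO1neg (background 40.4%), and ACADS, ECI2 and ETFB did not pass. The acyl-CoA dehydrogenases, which take the first step and differ in the chain length they prefer, did not move together. ACADVL, for very long chains, was at 293, 195, 254, 258 and 213 CPM in ROBO1pos and 492, 398, 490.4, 494 and 413 CPM in ROBO1neg. The groups did not overlap (log2FC -0.92, SE 0.10, edgeR adjusted p = 1.2e-06), and relative to its neighbours, with a median of -0.59, it differed by -0.33. ACADM, for medium chains, was higher in ROBO1pos at 91.1 ± 2.71 against 55.2 ± 2.18 CPM (log2FC 0.72). ACADS, for short chains such as butyrate, did not pass at 9.88 ± 0.905 against 11.4 ± 1.34 CPM (adjusted p = 0.060 with edgeR, 0.0498 with DESeq2). It passed as higher in ROBO1neg without ROBO1pos replicate 1, ROBO1neg replicate 3 or ROBO1neg replicate 4 (edgeR adjusted p = 0.038, 0.025 and 0.031), and relative to its neighbours (-0.27, 0.019).

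ACADL, for long chains, had the largest log2FC of the 41 genes (3.00, SE 0.25, edgeR adjusted p = 6.2e-08) and one of the lowest levels. Its counts summed to 213 in ROBO1pos and 26 in ROBO1neg, and in CPM it was at 1.32, 1.30, 2.05, 1.78 and 1.93 against 0.212, 0.172, 0.130, 0.307 and 0.180. The groups were well apart, yet ACADL made up 0.681% ± 0.166 of the sum of ACADL and ACADVL per kilobase in ROBO1pos and 0.0426% ± 0.0123 in ROBO1neg.

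HADH, the hydroxyacyl-CoA dehydrogenase of the third step for shorter chains, was higher in ROBO1pos at 111 ± 2.36 against 63.4 ± 4.09 CPM (log2FC 0.81). HADHA and HADHB encode the alpha and beta subunits of the mitochondrial trifunctional protein, which carries out the later steps on long chains. HADHA was at 495, 479, 499, 518 and 489 CPM in ROBO1pos and 294, 295, 301, 304 and 304 CPM in ROBO1neg. HADHB was at 153, 170.1, 158, 166 and 173 CPM in ROBO1pos and 145, 150.3, 146, 151 and 151 CPM in ROBO1neg. Neither gene's groups overlapped, but HADHA differed much more (log2FC 0.73, SE 0.035, edgeR adjusted p = 1.3e-10) than HADHB (log2FC 0.14, SE 0.041, edgeR adjusted p = 0.0055). Relative to neighbours with medians of 0.41 and 0.50, HADHA was higher in ROBO1pos (0.32) and HADHB higher in ROBO1neg (-0.35).

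HADHA and HADHB are transcribed away from each other, and in RefSeq (GRCh38.p14) their starts lie 307 bases apart. The 250 bases before the start of HADHA are shown, read along its strand, because genes that share this stretch differed in fold change; nothing is in capitals since it holds none of the motifs searched for below.

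HADHA, chr2:26244633-26244882, minus strand: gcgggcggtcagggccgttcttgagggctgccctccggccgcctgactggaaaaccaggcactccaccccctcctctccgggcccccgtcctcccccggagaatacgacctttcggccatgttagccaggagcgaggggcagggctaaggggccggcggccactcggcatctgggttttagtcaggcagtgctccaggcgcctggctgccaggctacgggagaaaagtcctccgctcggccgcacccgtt

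The isomerases ECI1 and ECI2, which shift double bonds of unsaturated fatty acids, differed little, with log2FC of 0.11 and 0.11. ECI1 passed (edgeR adjusted p = 0.034, and 0.0504 with the replicate block) and ECI2 did not (0.064). The call for ECI1 was lost without ROBO1pos replicate 1, 3 or 5 or ROBO1neg replicate 1, 3 or 4, with adjusted p of 0.052 to 0.096, and with DESeq2 (0.061), and relative to its neighbours ECI1 passed as higher in ROBO1neg (-0.17, adjusted p = 0.0023). ECI2 passed as higher in ROBO1pos without ROBO1pos replicate 4 (edgeR adjusted p = 0.021), with upper quartile scaling (0.0048), with library size only (0.030), with a filter of 5 CPM (0.046) and relative to its neighbours (8.3e-05).

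ETFDH, the dehydrogenase that hands electrons from fatty acid oxidation to ubiquinone, lies on chromosome 4 from 158672296 to 158709623. It was at 19.0, 21.3, 18.2, 19.2 and 20.2 CPM in ROBO1pos and 8.20, 8.74, 7.60, 7.85 and 7.32 CPM in ROBO1neg. The groups were far apart (log2FC 1.30, SE 0.071, edgeR adjusted p = 5.8e-10). PPID, whose exons cover 14.9% of ETFDH's exon bases on the other strand, was higher in ROBO1pos as well (log2FC 0.97). PPID had more reads than ETFDH, at 108 ± 9.78 against 55.3 ± 1.31 CPM. With the strand setting of the counting not found, the value of ETFDH is uncertain to that extent. The flavoprotein that feeds ETFDH is a dimer of the products of ETFA and ETFB. ETFA, outside the 41, had 181 ± 3.43 against 92.7 ± 3.77 CPM and was higher in ROBO1pos, while ETFB did not pass at 183 ± 19.5 against 172 ± 7.15 CPM. Without ROBO1pos replicate 5, ETFB passed as higher in ROBO1pos (log2FC 0.13, edgeR adjusted p = 0.039), as it did with upper quartile scaling (0.15, 0.045) and relative to its neighbours (0.18, 0.019).

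The coactivators PPARGC1A and PPARGC1B (PGC-1alpha and PGC-1beta), which raise transcription of mitochondrial and fatty acid oxidation genes together with nuclear receptors, had low levels. PPARGC1A was at 0.735, 1.26, 1.51, 1.37 and 0.822 CPM in ROBO1pos and 1.36, 1.81, 2.34, 2.46 and 3.25 CPM in ROBO1neg, with 146 and 290 counts in all. The lowest ROBO1neg library lay within the range of ROBO1pos (log2FC -0.98, SE 0.25, edgeR adjusted p = 0.0027). PPARGC1B did not pass at 14.7 ± 2.6 against 16.2 ± 2.07 CPM. Outside the 41, ESRRA, the estrogen-related receptor that partners with both, had 117 ± 6.20 against 54.6 ± 4.25 CPM and was higher in ROBO1pos, and the fatty acid receptors PPARA and PPARD were higher in ROBO1neg (log2FC -1.06 and -1.29).

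Pairs of related genes were compared through the log2 ratio of both in each library. How often unrelated pairs differ was not computed, and with so many genes called the counts of pairs are a description of these pairs, nothing particular to related genes. Of 18 pairs set up by compartment, subunit or family, 13 differed by an exact two-sided permutation test, adjusted over the pairs, and for 12 the groups did not overlap. Each of the latter had the smallest p the design allows, 0.00794, or 0.0119 when adjusted. The largest shift was that of IDH1 to IDH2, whose log2 ratio was -1.48 ± 0.328 in ROBO1pos and 1.79 ± 0.276 in ROBO1neg. Per kilobase of exon, IDH2 made up 73.3% ± 4.56 of the sum of both genes in ROBO1pos and 22.4% ± 3.25 in ROBO1neg. The ratios of ACADM to ACADVL and of SUCLG1 to SUCLG2 differed by 1.65 and 1.58, and that of HADHA to HADHB by 0.59, with 1.49 to 1.69 in ROBO1pos and 0.97 to 1.04 in ROBO1neg.

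The ratio of cytosolic to mitochondrial enzyme was lower in ROBO1pos for IDH1 to IDH2, for GOT1 to GOT2 (-0.31) and for ME1 to ME3 (-0.87), while the difference for MDH1 to MDH2 (-0.11) did not pass (exact permutation p = 0.111, adjusted 0.143). The ratio of IDH3A to IDH3B differed by 0.030 (adjusted exact p = 0.471), while IDH3A to IDH3G and IDH3B to IDH3G differed by 0.48 and 0.45 and passed. ECI1 to ECI2 differed by 0.0042 and did not pass. These ratios were not tested relative to neighbours, which changes the reading of several pairs. Relative to its neighbours IDH3A was at 0.19, IDH3B at 0.54 and IDH3G at 0.16. MDH1 was then at 0.016 and MDH2 at 0.67, and ECI1 at -0.17 and ECI2 at 0.30. IDH1 and IDH2 stayed far apart, at -0.51 and 2.01.

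**Figure D3:**
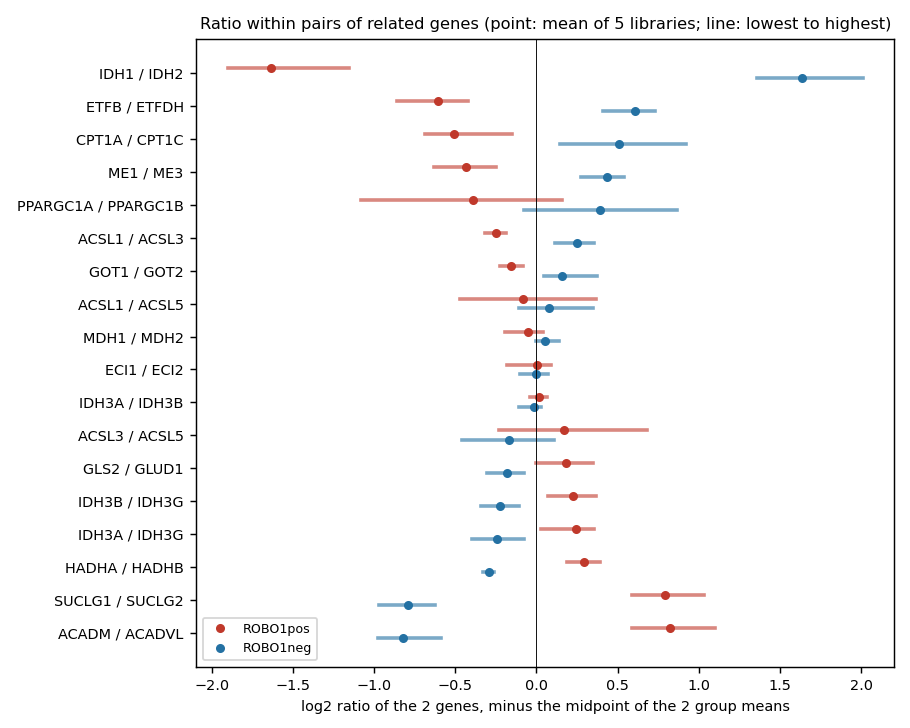
Log2 ratio of the genes of each of the 18 pairs (rows) in ROBO1pos (red) and ROBO1neg (blue), with the midpoint of the group means subtracted (x axis); points are means of 5 libraries and lines run from the lowest to the highest library. The lines of IDH1 / IDH2, ACADM / ACADVL and SUCLG1 / SUCLG2 lie farthest apart.

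Levels of different genes were set against each other as CPM per kilobase of exon, with lengths from GENCODE release 29, which may differ from the annotation used for counting. In ROBO1pos the highest were HADHA at 158 ± 4.55 and MDH2 at 158 ± 8.52, whose libraries overlapped, then MDH1 at 137 ± 4.87. FH (113 ± 6.22), CS (109 ± 5.14) and IDH2 (109 ± 16.4) came next and also overlapped. In ROBO1neg ACADVL stood first at 185 ± 19.4, before MDH2 at 114 ± 3.84 and MDH1 at 106 ± 5.78, which overlapped. IDH2 was number 6 of the 41 in ROBO1pos and number 26 in ROBO1neg, and IDH1 number 18 and number 9. CPT1C, PPARGC1B, ACADL and PPARGC1A were the 4 lowest in both groups, at most 1.49 per kilobase.

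Of the 33 called genes, 75.8% differed in the direction of the median of their neighbours on the chromosome, where 65.2% of all called genes did. These were 19 of 24 genes higher in ROBO1pos and 6 of 9 higher in ROBO1neg. Relative to the neighbours, 23 of the 41 were called higher in ROBO1pos (background 40.1%) and 11 in ROBO1neg (background 40.6%). MDH1 (0.36, neighbours 0.35) and OGDH (0.24, neighbours 0.33) differed about as their neighbours did and did not pass relative to them (adjusted p = 0.75 and 0.090). Others went against their neighbours, such as ACADL (3.00, neighbours -0.21), DLD (0.47, neighbours -0.27), MDH2 (0.47, neighbours -0.20) and CS (0.16, neighbours -0.38) in ROBO1pos and PPARGC1A (-0.98, neighbours 0.29) in ROBO1neg. IDH2 lies beside genes with a median of 0.57 and was at 2.01 relative to them.

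**Figure D4:**
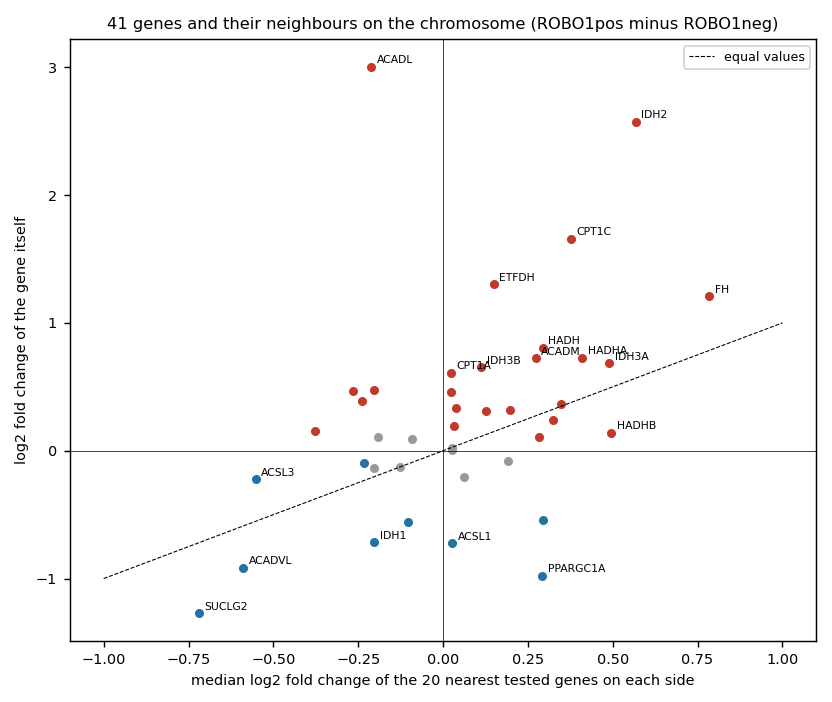
Log2 fold change of each of the 41 genes (y axis) against that of its surroundings, the median over the 20 nearest tested genes on each side (x axis), both ROBO1pos minus ROBO1neg; red and blue mark genes called higher in ROBO1pos and in ROBO1neg, grey those not called, and the dashed line marks equal values. IDH2, ACADL, CPT1C and ETFDH lie far above the line, and SUCLG2 (-0.72) and FH (0.78) at the ends of the x axis.

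Promoters, from 250 bases before to 50 after the RefSeq start, were searched on both strands for the estrogen-related receptor site TCAAGGTCA, the nuclear respiratory factor 1 core GCGCATGCG and the ETS site CCGGAAGT that GABP binds. Of the 41 genes, 39 had an entry. For 7 of these (ACSL1, ACSL5, CPT1C, ETFB, IDH1, IDH2 and PPARGC1B) the start in the entry lies inside the gene's annotated range, by 454 to 41630 bases, so another start of these genes was not searched. None of the 39 entries held the first motif, which stands in 0.205% of 10743 promoters of tested genes, or the second (3.50%). At shares this low, finding none in 39 entries is not unusual, so it does not tell whether these genes lack such sites. The ETS site was found in 4 of the 39, where 8.11% of promoters hold it: IDH3B, MDH2 and CPT2, all higher in ROBO1pos, and DLST, slightly higher in ROBO1neg. Their 250 bases before the start are shown, matches in capitals, because the same letters stand before genes called in either direction. DLST alone stands for ROBO1neg, and its call was lost in several alternatives and turned relative to its neighbours. MDH2 has 2 matches, and in DLST the match is on the opposite strand.

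IDH3B, chr20:2664217-2664466, minus strand: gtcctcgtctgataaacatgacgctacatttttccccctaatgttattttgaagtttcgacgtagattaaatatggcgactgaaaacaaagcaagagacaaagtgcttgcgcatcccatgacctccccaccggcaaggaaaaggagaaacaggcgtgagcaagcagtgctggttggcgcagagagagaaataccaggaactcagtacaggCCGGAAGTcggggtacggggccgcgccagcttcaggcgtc

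MDH2, chr7:76047856-76048105, plus strand: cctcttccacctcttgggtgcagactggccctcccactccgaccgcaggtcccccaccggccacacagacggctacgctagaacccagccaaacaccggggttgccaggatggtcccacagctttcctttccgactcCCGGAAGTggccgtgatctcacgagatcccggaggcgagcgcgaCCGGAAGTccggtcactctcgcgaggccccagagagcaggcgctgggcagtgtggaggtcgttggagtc

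CPT2, chr1:53196574-53196823, plus strand: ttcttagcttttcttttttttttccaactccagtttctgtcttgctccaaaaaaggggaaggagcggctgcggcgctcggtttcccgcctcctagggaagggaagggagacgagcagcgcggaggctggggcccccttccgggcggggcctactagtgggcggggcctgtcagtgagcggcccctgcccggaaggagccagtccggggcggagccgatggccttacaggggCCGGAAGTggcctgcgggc

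DLST, chr14:74881666-74881915, plus strand: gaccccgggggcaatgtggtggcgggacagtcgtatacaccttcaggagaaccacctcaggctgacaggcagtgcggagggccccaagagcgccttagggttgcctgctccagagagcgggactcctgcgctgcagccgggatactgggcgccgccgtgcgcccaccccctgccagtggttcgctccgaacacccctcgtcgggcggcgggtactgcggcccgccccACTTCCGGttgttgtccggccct

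A match describes the sequence and is not evidence of binding. GABPA, which encodes the DNA-binding subunit of GABP, was at 67.1 ± 2.24 against 56.7 ± 3.05 CPM (log2FC 0.24), and NRF1 did not pass (-0.080).

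Other genes of these pathways, 65 in a list of transporters, further enzymes and regulators, were divided between the groups. Of 62 tested, 26 were higher in ROBO1pos and 24 in ROBO1neg, with 12 not passing (PCK1, GPT and CPT1B had too few reads to be tested) and a median log2FC of -0.0053; as shares, 41.9% and 38.7% stand beside the 41.6% and 40.4% of all genes. The 6 with the smallest adjusted p in ROBO1pos were DECR1, a reductase for unsaturated fatty acids (61.3 ± 2.03 against 17.3 ± 0.928 CPM), the mitochondrial thiolase ACAA2 (114 ± 5.46 against 58.6 ± 2.51 CPM, beside neighbours at 1.03), and ETFA, SLC1A5, ME2 and ESRRA, described above. In ROBO1neg they were ACSS1, the mitochondrial acetyl-CoA synthetase (8.33 ± 0.689 against 88.0 ± 9.84 CPM, log2FC -3.40), EHHADH, the bifunctional enzyme of peroxisomal oxidation (-1.60), ACAD9, known as an assembly factor of complex I (-1.28), OGDHL, a relative of OGDH (-1.76), CRAT, and SLC25A1, the mitochondrial citrate carrier (-0.95). Of other peroxisomal genes, ACAA1 was also higher in ROBO1neg (-0.53) and HSD17B4 in ROBO1pos (0.47).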

How the data were processed

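The authors deposited unnormalised counts of reads for each gene, with a file for every library. The submitters' processing notes name GRCh38, FastQC, bcl2fastq, STAR 2.6.0c, SAMtools 1.9 and, for their own comparison, DESeq2 1.24.0; the counter, its strand setting and its annotation were not stated there. The library kit was stranded, per the labels' protocols. The 5 summary entries without a gene name did not enter totals or fits; reads on genes were 58.7% of ROBO1pos and 63.4% of ROBO1neg entries.

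Counts were fitted with edgeR 4.0.16 in R 4.3.3 (filterByExpr, TMM, quasi-likelihood test on group, Benjamini-Hochberg adjustment over 14932 genes), and the code was tested on simulated data. SE is the size of log2FC divided by the square root of F. Library depth limits genes near 1 CPM, ACADL and PPARGC1A among them. Pair ratios used log2 CPM with a prior count of 2. Positions came from RefSeq (GRCh38.p14), matching 13663 tested genes by symbol and 934 by synonym, with 335 unplaced. Replicates of a group differed by 3.58 to 22.3 times the sampling variance, so none was counted as a copy. Same-numbered libraries deviated together (r = 0.114 to 0.319 across genes, each best with its own number); this pairing comes from the data, not from the labels.

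The members, lists and pairs were chosen with earlier results of these data known. The rule for named genes gave all 41 members, with every library's value for called genes of at least 2-fold, and, of the wider list, the 6 called genes per direction with the smallest adjusted p, the succinate dehydrogenase genes and ETFA; 3 further genes of that list are not reported here. Library values of other members, and SUCLA2, ACSL4, SLC25A20, PPARA, PPARD, GABPA, NRF1, ACAA1 and HSD17B4, were added after their values were seen. Alternatives were 3 other scalings, 2 other filters, DESeq2 1.42.0, limma-voom 3.58.1, a test against 1.5-fold, the replicate block, an offset by neighbours and each library left out; pairs were repeated with a prior count of 0.5 and with library size only.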

Additional observations from a re-analysis of the deposited data

Results flagged for a closer look

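In 2 of 82 groups of 5 libraries (41 genes in each population) 1 library stood apart from the others by Dixon's test, which chance gives in about 1 in 20 groups. Both times it was ROBO1pos replicate 5. It was the lowest for IDH2, at 227 CPM against 313 to 346 in the others, and log2FC was 2.58 with it and 2.66 without it. It was the highest for GLUD1, at 129 CPM against 115 to 118, and log2FC was 0.019 with it and -0.016 without it, neither passing the edgeR test.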

How the results depend on the processing

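Counts of called genes stayed within 1.5 times of those reported in all alternatives but the test against 1.5-fold, which left 9 of the 41 genes higher in ROBO1pos and 3 in ROBO1neg, and 10 and 10 of the wider list. With 1 library left out the counts were 23 to 25 and 8 to 10, and 23 to 27 and 23 to 25 for the wider list. With the replicate block they were 23 and 9, and 26 and 24; among the 41 genes it changed the call of ECI1 and no other. Apart from the test against 1.5-fold, 26 of 33 called genes had the same call and direction in all alternatives in which they were tested. ACADL, CPT1C and PPARGC1A, among these 26, were removed by the filter of 5 CPM and were not tested under it. Relative to neighbours the direction reversed for OGDH (-0.086), DLST (0.14), PC (0.0010), GLUD1 (-0.0063), GOT1 (-0.017), ACSL3 (0.33), HADHB (-0.35), ECI1 (-0.17) and PPARGC1B (0.067); the cause was not tested. GOT1 also reversed with no filter beyond 1 count (-0.0034). With 1 library left out, GOT1 ran from -0.025 to 0.069, GLUD1 from -0.016 to 0.034 and the ratio of ECI1 to ECI2 from -0.021 to 0.050. No other pair reversed and no pair changed its call in the alternatives run. The pair tests were not repeated with same-numbered libraries kept together, so their dependence on that pairing was not tested. Nor were they repeated relative to neighbours, the alternative that reversed most single genes, so the pair results may depend on it. DLST lost its call with upper quartile scaling (adjusted p = 0.36) and with library size only (0.057).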
